A study of Mus musculus with 16 samples.

Results

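The genes described here carry peptides to the cell surface on major histocompatibility complex (MHC) class I molecules in mouse pluripotent stem cells. They are 10 genes chosen by name from the 34042 genes of the count table: the heavy chain genes H2-K1, H2-D1, H2-Q6 and H2-T23, the light chain gene B2m, the peptide transporter genes Tap1 and Tap2, the loading factor gene Tapbp, the proteasome subunit gene Psmb8 and the transcriptional activator gene Nlrc5. All 10 were among the 18555 genes that passed the low-count filter and were tested. H2-Q6 was picked because it led the genes high in formative cells, so its values in comparisons with formative cells are given as a description and without a test.

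Class I molecules show fragments of the cell's own proteins to cytotoxic T cells and to natural killer cells. The proteasome cuts proteins into peptides, and the immunoproteasome is a form of it in which Psmb8 and related subunits replace the constitutive ones. The TAP transporter, made of the Tap1 and Tap2 proteins, moves peptides into the endoplasmic reticulum, where tapasin (Tapbp) holds the transporter next to an empty class I molecule. The heavy chain leaves for the cell surface once it has bound both a peptide and beta-2 microglobulin (B2m). NLRC5 is the activator of class I promoters, and interferon raises most genes of this pathway. Mouse embryonic stem cells are known for low class I levels.

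RNA was sequenced from 16 libraries of 5 cell lines in 4 groups. Formative stem cells (FS), a culture between the naive and the primed state, were kept in A3XR medium and came from 2 lines: 5ar1 at passages 10, 12 and 14 (FS replicates 1 to 3) and 5ar3 at passages 12, 4 and 5 (FS replicates 4 to 6). Epiblast stem cells (EpiSCs), which resemble the later epiblast, came from line AFX6 in AFX medium at passages 12, 5 and 8 and from line AF32 in AF medium at passages 13, 14 and 15. Naive embryonic stem cells (ES) came from line E14IV-C in 2iL medium at passages 12, 13, 15 and 20. Replicates were passages of a line, and the 2 FS lines shared a group mean in the comparisons of groups. P-values of those comparisons therefore measure the spread between passages together with the difference between the FS lines. Each EpiSC or ES group is a single line in a single medium, and these cannot be told apart. The strain and MHC haplotype of the lines are not given in the sources used here. No gene modification or other treatment is named for any group.

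Total counts ranged from 22069338 to 33290250 per library. ES replicate 1 stood apart in that the mitochondrial rRNA gene mt-Rnr2 took 38.1% of its counts, against 9.96% to 25.0% in the 15 other libraries. Summed levels of 6 naive marker genes were 2224 to 3471 CPM (a count scaled by library size and composition) in ES and 4.43 to 12.7 CPM elsewhere. Summed levels of 5 formative and primed marker genes were 40.6 to 105 CPM in ES and 1146 to 2412 CPM elsewhere. Markers of other cell types were also summed. The 8 fibroblast markers, which would show feeder cells, gave 0.587 to 1.11 CPM in ES, 17.3 to 34.4 CPM in FS, 12.3 to 20.4 CPM in AFX EpiSCs and 33 to 79.4 CPM in AF EpiSCs. The 8 blood and immune markers gave 98.1 to 133 CPM in ES and 2.51 to 9.08 CPM in the other groups. The 6 trophoblast markers gave 50.4 to 65.8 CPM in ES, 1.32 to 2.93 CPM in FS, 2.34 to 13.9 CPM in AFX EpiSCs and 9.42 to 16 CPM in AF EpiSCs.

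Of the 10 genes, 8 lie on chromosome 17 (GRCm38, the assembly that mm10 also names). H2-K1 is at chr17:33996017-34000347 on the minus strand. Further along the chromosome lie Tap1 at chr17:34187553-34197225, Psmb8 at chr17:34197721-34201454 and Tap2 at chr17:34203527-34216321, all on the plus strand. H2-D1 is at chr17:35262730-35267499 and H2-Q6 at chr17:35424850-35430055 on the plus strand. H2-T23 is at chr17:36029773-36032855 on the minus strand, and Tapbp is at chr17:33915899-33929292 on the plus strand. B2m is at chr2:122147686-122153083 and Nlrc5 at chr8:94434356-94527272, both on the plus strand.

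Class I genes are close copies of one another, and reads that fit several copies can be dropped or given to the wrong one. In H2-Q6, 35.0% of the 50-base windows of the longest transcript also occurred in a transcript of another gene, with H2-Q7 and H2-Q4 holding the most of them. The share was 16% in H2-T23, 14.3% in H2-D1 and 8.11% in H2-K1, and with 100-base windows it fell to 13%, 3.93%, 4.64% and 0%. B2m and Nlrc5 had 0% at both lengths. The handling of reads with several hits is not given in the sources used here. Class I genes also differ strongly between mouse strains, and reads from another haplotype can fit the reference less well. Levels of a heavy chain gene set side by side between lines therefore include an unknown part from allele differences, and that part was not tested.

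The promoters of the heavy chain genes and of B2m are shown for their matches to control elements known from class I promoters. NF-kappaB, interferon regulatory factors and the NLRC5 complex bind such elements. Sequences are from RefSeq windows (GRCm38.p6) of 250 bases before to 50 bases after a transcript start, which were found for 8 of the 10 genes. Each is printed 5′ to 3′ on the strand of its gene, and capitals mark a match to a motif searched on both strands: the kappaB site GGGGANTCC, the core of the interferon response element GAAANNGAA, the gamma-activated site TTCNNNGAA, the X2 box TGACGC and the Y box CCAAT. The H2-K1 stretch is chr17:34000325-34000468 (minus strand), H2-D1 chr17:35262913-35263055 (plus), H2-Q6 chr17:35424667-35424809 (plus), B2m chr2:122147538-122147648 (plus) and H2-T23 chr17:36032739-36032834 (minus).
H2-K1: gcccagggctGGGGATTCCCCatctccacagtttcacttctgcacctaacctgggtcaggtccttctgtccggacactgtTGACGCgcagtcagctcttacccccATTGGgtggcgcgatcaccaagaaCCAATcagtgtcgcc
H2-D1: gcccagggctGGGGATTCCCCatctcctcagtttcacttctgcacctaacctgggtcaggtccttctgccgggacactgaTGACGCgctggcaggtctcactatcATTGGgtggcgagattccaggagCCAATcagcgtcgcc
H2-Q6: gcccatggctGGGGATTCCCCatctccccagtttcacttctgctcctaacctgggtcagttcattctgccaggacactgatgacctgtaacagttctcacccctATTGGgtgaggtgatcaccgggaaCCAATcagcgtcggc
B2m: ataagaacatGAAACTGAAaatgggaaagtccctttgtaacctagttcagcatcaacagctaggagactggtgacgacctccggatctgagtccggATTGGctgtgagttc
H2-T23: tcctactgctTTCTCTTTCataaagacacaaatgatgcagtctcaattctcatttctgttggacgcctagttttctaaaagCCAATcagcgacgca

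Of the 4 heavy chain promoters, those of H2-K1, H2-D1 and H2-Q6 were aligned. H2-K1 and H2-D1 were identical at 127 of 144 aligned positions (88.2%), H2-K1 and H2-Q6 at 84.0% and H2-D1 and H2-Q6 at 83.3%. The kappaB letters stood in H2-K1, H2-D1 and H2-Q6, and in 1.19% of all 32851 promoter windows. In these genes the match overlaps its own reverse complement, so it is found on both strands. The X2 letters stood in H2-K1 and H2-D1 and in 7.4% of windows, and H2-Q6 did not have them. H2-T23 had neither the kappaB nor the X2 letters. The interferon response core stood in B2m and in H2-T23 and in 8.56% of windows. The Y box letters stood in 7 of the 8 genes and in 37.4% of windows. Psmb8 had the gamma-activated site letters, found in 8.3% of windows. A match is a run of letters in these windows and does not show binding. Each motif was searched as a fixed pattern, so a gene without a match can still hold such an element in other letters. In H2-K1, H2-D1 and H2-Q6 the letters tttcacttc follow the kappaB match. The interferon response pattern does not cover this spelling on either strand.

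The level of each gene was first set out by line. Genes were compared per kilobase of merged exons. Merged exons pool all annotated transcripts of a gene, so levels and ratios between genes depend on the annotation. H2-K1 had 2938 merged bases and 1825 windows of 50 bases in its longest transcript, against 860 and 811 in B2m. A ratio set side by side between lines does not depend on these lengths. On this scale B2m was the most abundant member in FS at 43.2 ± 23.1 CPM per kilobase (SD, n = 6). It was followed by H2-K1 at 21.4 ± 3.22, H2-D1 at 6.84 ± 1.60 and H2-Q6 at 5.23 ± 4.30. The processing genes were lower, with Tapbp at 3.89 ± 1.07 and Tap1 at 2.79 ± 1.02, and Tap2, Psmb8, Nlrc5 and H2-T23 were under 0.5 CPM per kilobase. In ES the order began with B2m at 22.1 ± 5.81 CPM per kilobase (SD, n = 4), Tapbp at 8.46 ± 0.754 and H2-K1 at 1.25 ± 0.610. Fewer cells that express a gene and less RNA per cell cannot be told apart in these bulk libraries.

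**Figure D1:**
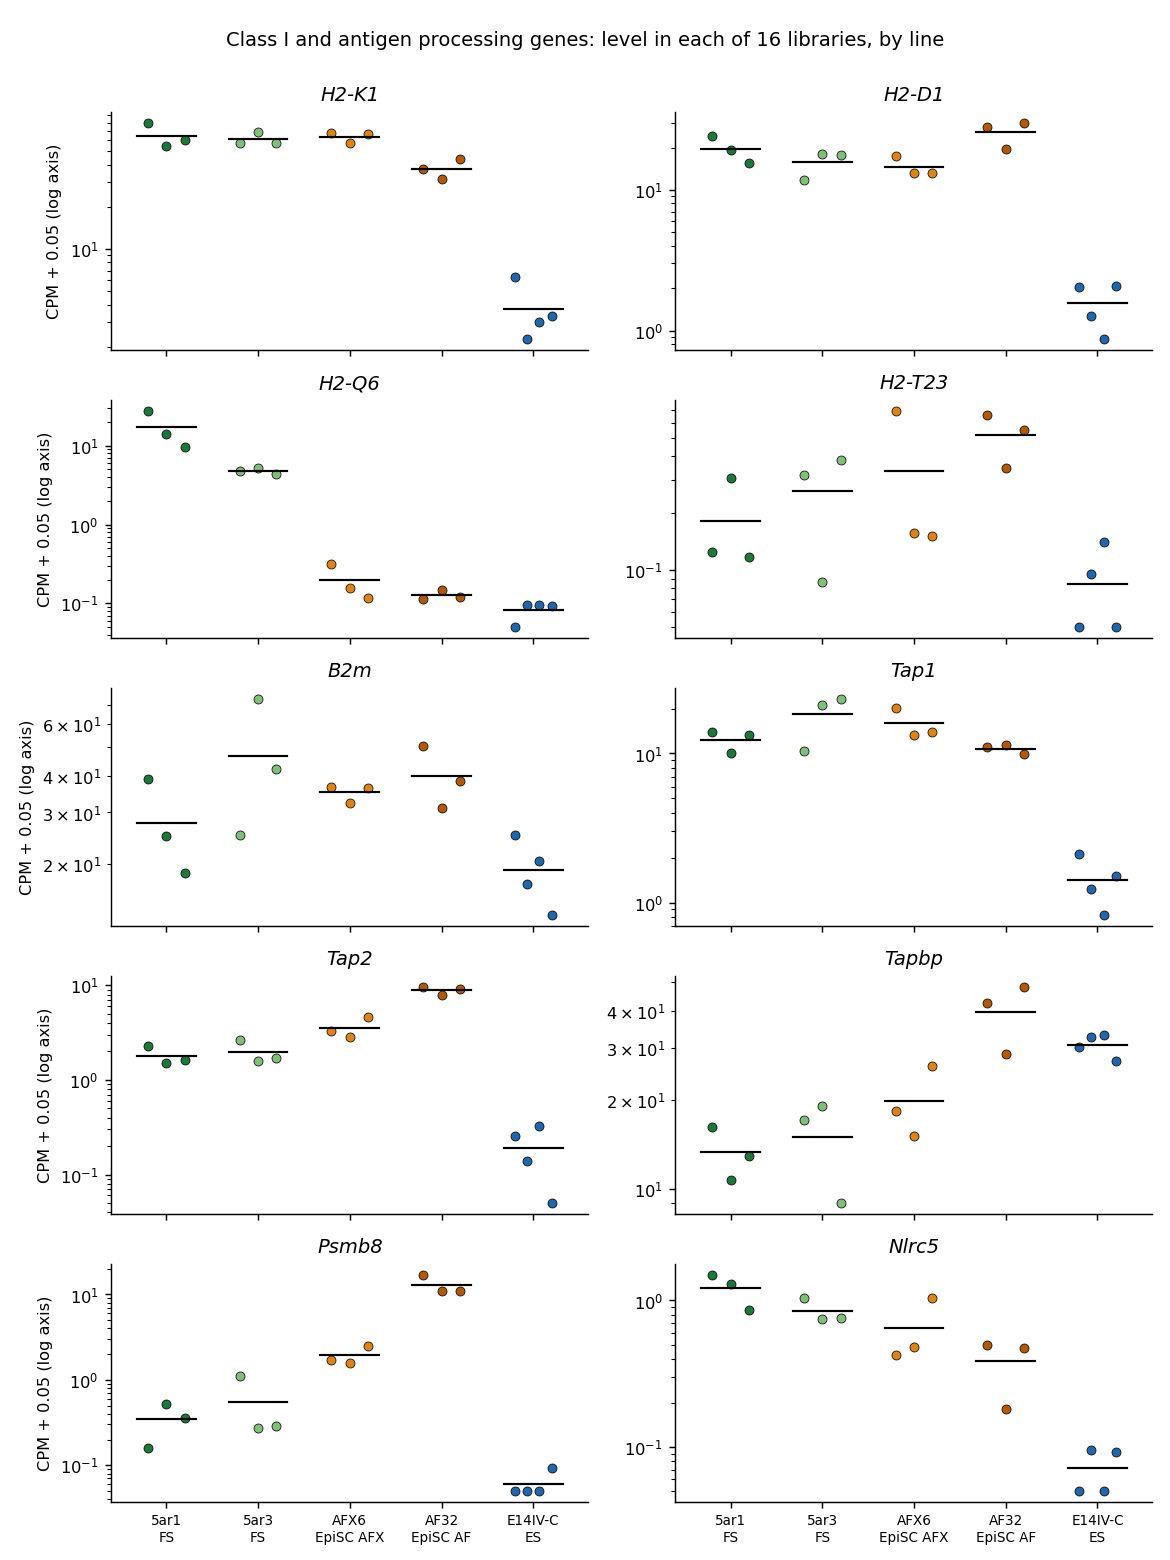
Level of each of the 10 genes in every library, as CPM plus 0.05 on a log axis, by line; points are libraries and bars are line means. H2-K1, H2-D1 and Tap1 sit lowest in ES, H2-Q6 is high in the 2 FS lines, and Psmb8 and Tap2 are highest in line AF32.

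Naive cells differed most from the other groups. Between FS and ES, 8 of the 9 genes tested were called by edgeR's quasi-likelihood test at an adjusted p under 0.05, with 7 higher and 1 lower in FS. Of all genes 62.8% were called, 32.9% higher and 29.9% lower. The median log2 fold change was 3.55 over these 9 genes and 0.04 over all genes. Between AFX EpiSCs and ES, 9 of 10 genes were called (8 higher and 1 lower in EpiSCs) against 54.7% of all genes (28.5% higher and 26.2% lower), with medians of 3.41 and 0.01. Between AF EpiSCs and ES, 8 of 10 were called, all of them higher in EpiSCs, against 56.7% of all genes (29.7% higher and 27% lower), with medians of 3.45 and 0.01. The 10 genes of the EpiSC comparisons include H2-Q6, which was not called there and had at most 8 counts in any of these libraries. They also include H2-T23, which was called higher in EpiSCs and passed the low-count filter through EpiSC libraries alone. These comparisons share the ES libraries. With any 1 library left out, ES replicate 1 included, the counts were 8 to 9, 6 to 8 and 7 to 8.

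Differences among the other groups were fewer. Between FS and AFX EpiSCs 1 of 9 genes was called (lower in FS) against 5% of all genes (2.89% higher and 2.1% lower), with a median log2 fold change of -0.05 over the 9 genes and 0.04 over all genes. Between FS and AF EpiSCs 5 of 9 were called, with 2 higher and 3 lower in FS, against 16.6% of all genes (7.84% higher and 8.81% lower), and the medians were -0.54 and 0.04. Between AFX and AF EpiSCs 2 of 10 were called, both lower in AFX EpiSCs, against 4.26% of all genes (1.43% higher and 2.83% lower), and the medians were -0.45 and 0.00. The counts among these groups were small, and some moved with the setting: the comparison of FS with AF EpiSCs gave 3 to 5 genes and the comparison of FS with AFX EpiSCs 0 or 1 when single libraries were left out. The comparison of the 2 EpiSC groups gave 1 or 2 genes in the same way, 0 with passage as a covariate and 5 when only their libraries were fitted.

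**Figure D2:**
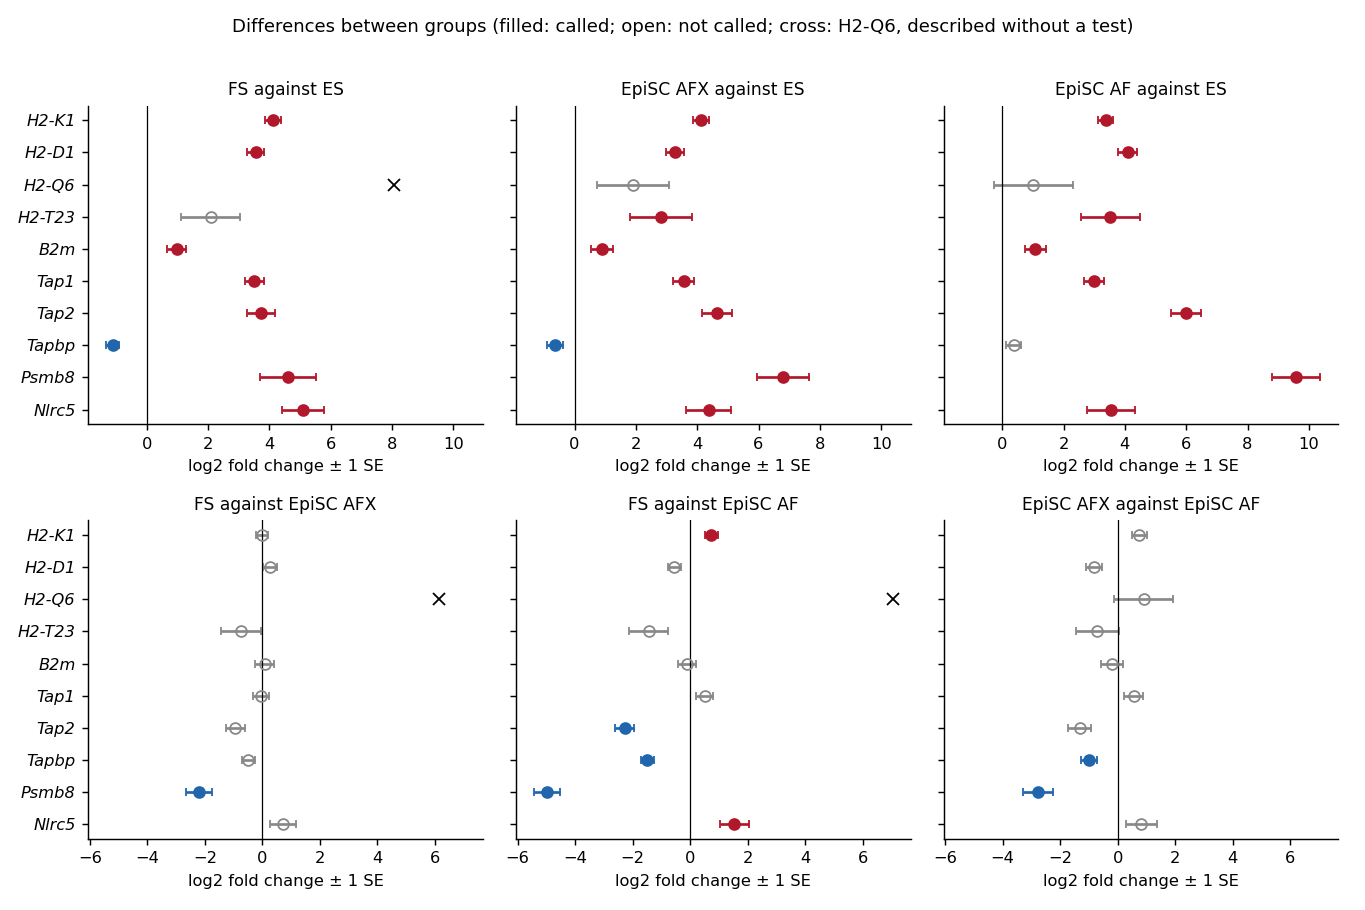
Log2 fold change of each gene (x axis, with bars of 1 SE) in the 6 comparisons of groups; filled points were called at an adjusted p under 0.05, open points were not, and crosses mark H2-Q6 where it is described without a test. In the comparisons with ES, H2-K1, H2-D1, Tap1, Tap2, Psmb8 and Nlrc5 lie at or above about 3, and Psmb8, Tap2 and Tapbp lie to the left in the comparison of FS with AF EpiSCs.

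The classical heavy chains, which present most peptides, were low in naive cells and abundant in the other groups. H2-K1 was at 6.29, 2.21, 2.96 and 3.27 CPM in the 4 ES libraries. In the 6 FS libraries it ranged from 54.2 to 79.4 CPM with a median of 58.9, and it was at 66.9, 56.8 and 65.7 CPM in AFX EpiSCs and 37.0, 31.5 and 43.8 CPM in AF EpiSCs. ES libraries were all below every other library, and the AF libraries were all below the FS and AFX libraries. Over ES, the rise of H2-K1 on the log2 scale was 4.12 in FS (SE 0.25, edgeR adjusted p 2.52e-10), 4.13 in AFX EpiSCs (SE 0.26, edgeR adjusted p 9.94e-10) and 3.37 in AF EpiSCs (SE 0.26, edgeR adjusted p 8.48e-09). It was also higher in FS than in AF EpiSCs, by 0.74 on the log2 scale (SE 0.22, edgeR adjusted p 0.0300). That call was lost with passage as a covariate (adjusted p 0.0842), with either FS line alone, and without FS replicate 1 or AF replicate 1 or 2, where the adjusted p reached 0.148.

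H2-D1, the other classical heavy chain, was at 2.00, 1.22, 0.820 and 2.04 CPM in ES. It ranged from 11.6 to 24.1 CPM in FS with a median of 17.7, and was at 17.3, 13.2 and 13.2 CPM in AFX EpiSCs and 27.9, 19.4 and 29.8 CPM in AF EpiSCs. ES libraries again lay below all others, while the FS range overlapped both EpiSC groups. The log2 fold change over ES was 3.55 in FS (SE 0.28), 3.27 in AFX EpiSCs (SE 0.29) and 4.09 in AF EpiSCs (SE 0.30), with edgeR adjusted p of 6.42e-09, 6.53e-08 and 5.12e-09. H2-D1 was not called between FS and AF EpiSCs (log2 fold change -0.54, SE 0.24, edgeR adjusted p 0.137) or between the EpiSC groups (-0.82, SE 0.28, edgeR adjusted p 0.124). Per kilobase, the ratio of H2-K1 to H2-D1 was 1.17 to 1.42 in the AF32 libraries and 2.47 to 4.37 in the 9 libraries of 5ar1, 5ar3 and AFX6. The ratio was 1.41 to 3.17 in ES. It was chosen after its values were seen and was not tested, and allele differences between the lines may enter it. Its size also depends on the annotated lengths.

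B2m encodes the light chain that every class I heavy chain needs. Its level was 25.1, 17, 20.5 and 13.4 CPM in ES, 18.7 to 73.2 CPM in FS with a median of 32, 36.5, 32.3 and 36.3 CPM in AFX EpiSCs and 50.7, 31.1 and 38.4 CPM in AF EpiSCs. The ES and FS libraries overlapped, and both EpiSC groups lay above ES. B2m was called higher than in ES in FS by 0.97 on the log2 scale (SE 0.31, edgeR adjusted p 0.0112), in AFX EpiSCs by 0.89 (SE 0.35, edgeR adjusted p 0.0412) and in AF EpiSCs by 1.08 (SE 0.35, edgeR adjusted p 0.0146). These calls were not equally stable. The FS call was kept in 18 of 20 alternative fits, the AF call in 14 of 15 and the AFX call in 7 of 15. With passage as a covariate the adjusted p was 0.458 in FS and 0.619 in AFX EpiSCs, line 5ar1 alone gave 0.0905, leaving out AF replicate 1 gave 0.0733, and 6 of the 7 fits that left out an AFX or ES library took the AFX call away. Per kilobase, B2m stood at 13.6 to 26.3 times the level of H2-K1 in ES and at 1.06 to 4.68 times in the other lines, with no overlap. That ratio was also chosen after its values were seen, and its size depends on the annotated lengths.

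Both subunits of the peptide transporter were lowest in ES, and outside ES they did not follow the same order of lines. Tap1 was at 2.07, 1.17, 0.775 and 1.45 CPM in ES and at 9.94 to 23.2 CPM in the 12 other libraries, whose groups overlapped except that the 3 AFX libraries lay above the 3 AF libraries. Its log2 fold change over ES was 3.51 in FS (SE 0.32, edgeR adjusted p 4.44e-08), 3.56 in AFX EpiSCs (SE 0.34, edgeR adjusted p 1.41e-07) and 3.0 in AF EpiSCs (SE 0.34, edgeR adjusted p 9.52e-07). Tap1 was not called among the 3 other groups. Tap2 was at 0.207, 0.0903, 0.273 and 0 CPM in ES, where the library at 0 allows up to 3 counts, and ranged from 1.47 to 2.59 CPM in FS with a median of 1.62. It was at 3.20, 2.78 and 4.61 CPM in AFX EpiSCs and 9.58, 7.91 and 9.17 CPM in AF EpiSCs. The 4 groups did not overlap, in the order ES, FS, AFX and AF.

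Tap2 was higher than in ES by 3.71 on the log2 scale in FS (SE 0.46, edgeR adjusted p 2.06e-06), 4.65 in AFX EpiSCs (SE 0.49) and 5.98 in AF EpiSCs (SE 0.49). The difference of FS from AF EpiSCs was -2.27 on the log2 scale (SE 0.33, edgeR adjusted p 0.000169). The step from FS to AFX EpiSCs was not called by edgeR (-0.94, SE 0.34, adjusted p 0.133) and was called by DESeq2 (adjusted p 0.00996). The step between the EpiSC groups was likewise not called by edgeR (-1.33, SE 0.40, adjusted p 0.0729) and was called by DESeq2 (adjusted p 0.000345) and by edgeR on those 6 libraries alone (adjusted p 0.00611). Per kilobase the ratio of Tap1 to Tap2 was 0.749 to 0.987 in AF32 and 2.09 to 9.71 in 5ar1, 5ar3 and AFX6. In the 3 ES libraries with a Tap2 count it was 1.96 to 8.98, and the size of this ratio depends on the annotated lengths. Exons of Tap2 overlap the antisense transcripts Gm15821 and Gm20496, which had at most 3 counts in any library, and an exon of Tap1 overlaps Psmb9 on the other strand.

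Tapbp, the gene of tapasin, was the only member called lower in FS than in ES. It was at 30.1, 32.5, 33.1 and 27.1 CPM in ES, 8.95 to 19.0 CPM in FS with a median of 14.5, 18.3, 15 and 26.0 CPM in AFX EpiSCs and 42.5, 28.5 and 48.0 CPM in AF EpiSCs. All FS libraries lay below all ES and AF libraries, and ES overlapped AF. The log2 fold change of FS was -1.12 against ES (SE 0.21, edgeR adjusted p 0.000170) and -1.49 against AF EpiSCs (SE 0.22, edgeR adjusted p 0.000198). AFX EpiSCs were lower than AF EpiSCs (-1.0, SE 0.27, edgeR adjusted p 0.0414) and lower than ES (-0.63, SE 0.25, edgeR adjusted p 0.0426). Both AFX calls were lost under several settings, among them total counts as the only scaling, with adjusted p of 0.0638 and 0.217. The exon that Tapbp shares with Zbtb22, and its antisense overlap with Gm19412, which had 4 to 40 counts in a library, leave part of its reads uncertain.

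Among 10 peptide loading genes, which besides B2m, Tap1, Tap2 and Tapbp include chaperones and trimming peptidases, 5 were called between FS and AF EpiSCs, all of them lower in FS, with a median log2 fold change of -0.43 against 0.04 over all genes. Of all genes 8.81% were lower in this comparison. Erap1, which trims peptides in the endoplasmic reticulum, had the largest difference after Tap2. It was at 3.91 to 16.7 CPM in FS with a median of 7.77, 11.8, 13 and 14.5 CPM in AFX EpiSCs and 40.8, 35.4 and 31.7 CPM in AF EpiSCs. The AF libraries lay above all others, and against AF EpiSCs the log2 fold change of Erap1 was -2.08 in FS (SE 0.32, edgeR adjusted p 0.000249) and -1.46 in AFX EpiSCs (SE 0.39, edgeR adjusted p 0.0417). Against ES, 3 of the 10 genes were higher in FS and 3 lower, near the shares of 32.9% and 29.9% over all genes. The lower ones were Tapbp, the peptidase gene Lnpep (log2 fold change -1.16, SE 0.22) and the chaperone gene Canx (-0.30, SE 0.10).

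Psmb8, the immunoproteasome subunit, had the widest range of group means among the 10 genes, relative to its lowest. It had 1 count in all 4 ES libraries together and 66 counts in the 6 FS libraries, 165 in AFX EpiSCs and 1170 in AF EpiSCs. The level was 0.111 to 1.07 CPM in FS with a median of 0.270, 1.65, 1.54 and 2.47 CPM in AFX EpiSCs and 16.9, 10.9 and 11 CPM in AF EpiSCs, and the 4 groups did not overlap. Psmb8 was lower in FS than in AF EpiSCs by -4.98 on the log2 scale (SE 0.45, edgeR adjusted p 1.83e-06) and lower in AFX than in AF EpiSCs by -2.77 (SE 0.52, edgeR adjusted p 0.00486). It was lower in FS than in AFX EpiSCs by -2.21 (SE 0.45, edgeR adjusted p 0.00853). With only 1 count in ES, the ratio over ES was 33.3 in FS (95% exact binomial interval 5.78 to 1336), 155 in AFX EpiSCs (27.5 to 6174) and 1067 in AF EpiSCs (191 to 42198), where intervals cover counting error only. The AFX calls were the less stable: the difference from FS gave an adjusted p of 0.0506 when only those groups were fitted and 0.0634 without AFX replicate 3, and that between EpiSC groups gave 0.0722 with passage as a covariate.

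Other subunits of the immunoproteasome did not all share this order. Of 6 listed genes, 4 were lower in FS than in AF EpiSCs: Psmb8, Psmb10 (-1.56, SE 0.33, edgeR adjusted p 0.00343) and the activator subunits Psme2 (-1.05, SE 0.22) and Psme1 (-0.81, SE 0.13). Of all genes 8.81% were lower. The list's median log2 fold change was -0.93, against 0.04 over all genes. Psmb9, whose protein joins the same complex, was at 1.14 to 1.98 CPM in FS, 1.96 to 2.34 CPM in AFX EpiSCs, 1.70 to 2.35 CPM in AF EpiSCs and 0 to 0.213 CPM in ES. Its FS and AF ranges overlapped, and it was not called between FS and AF EpiSCs (log2 fold change -0.35, edgeR adjusted p 0.571). Of 9 constitutive proteasome genes, 1 was higher (Psmb6, 0.88) and 1 lower (Psme4, -0.80) in FS than in AF EpiSCs, with a median of -0.12, and 16.6% of all genes were called.

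Nlrc5, the class I activator, was nearly silent in ES. It had 2 counts in the 4 ES libraries together. Its level was 0.700 to 1.45 CPM in FS with a median of 0.901, 0.371, 0.428 and 0.983 CPM in AFX EpiSCs and 0.450, 0.131 and 0.425 CPM in AF EpiSCs. All FS libraries lay above the AF libraries, while the AFX libraries overlapped both. The ratio of summed counts over ES was 40.9 in FS (95% exact binomial interval 11.1 to 341), 24.5 in AFX EpiSCs (6.45 to 208) and 13.7 in AF EpiSCs (3.47 to 118), and all were called (edgeR adjusted p 4.38e-06, 8.68e-05 and 0.000879). Nlrc5 was higher in FS than in AF EpiSCs by 1.54 on the log2 scale (SE 0.49, edgeR adjusted p 0.0385). This call was lost without FS replicate 1, 2 or 4, without any one of the 3 AF libraries, with line 5ar3 alone and without the low-count filter, with adjusted p up to 0.187. The order of Nlrc5 between these groups, higher in FS, was opposite in sign to that of Psmb8, Tap2 and Tapbp.

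Nlrc5 was listed with the genes of its DNA-binding partners and of other class I and II activators. Of 9 transactivator genes, 4 were higher and 3 lower in FS than in ES, with a median log2 fold change of 0.13 against 0.04 over all genes. Over all genes the shares were 32.9% and 29.9%, so the list's counts were near the background. Besides Nlrc5 the genes that were higher were Creb1 (1.09), Rfxap (0.64) and Nfyb (0.36), and those that were lower were Rfx5 (-0.56), Nfyc (-0.53) and the class II activator Ciita. Without ES replicate 4, 3 were higher and 1 lower. Ciita was at 0.226 to 1.28 CPM in ES and at most 0.0942 CPM in any other library. Between FS and AF EpiSCs, Nlrc5 was the only one of the 9 that was called. In that comparison 16.6% of all genes were called (7.84% higher and 8.81% lower), so this count was also near the background.

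H2-T23 encodes a nonclassical heavy chain, known as Qa-1, that presents leader peptides of other class I molecules to natural killer cell receptors. It never exceeded 19 counts in a library. H2-T23 passed the low-count filter through EpiSC libraries alone, so its calls of EpiSCs against ES are not free of that selection. Its level was 0, 0.0452, 0.0911 and 0 CPM in ES, 0.0368 to 0.330 CPM in FS with a median of 0.165, 0.641, 0.107 and 0.102 CPM in AFX EpiSCs and 0.611, 0.294 and 0.495 CPM in AF EpiSCs. FS overlapped every group, and both EpiSC groups lay above ES. The ratio of summed counts over ES was 4.55 in FS (95% exact binomial interval 1.40 to 23.4), 7.85 in AFX EpiSCs (2.39 to 40.6) and 12.8 in AF EpiSCs (4.08 to 64.4). The call against ES was made for AF EpiSCs (edgeR adjusted p 0.00473) and for AFX EpiSCs (0.0248), where it rested on AFX replicate 1 (0.307 without it) and on ES replicates 1 and 4. It was not made for FS (0.0705), although it passed with total counts as the only scaling (0.0376) and without FS replicate 5 or ES replicate 3.

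H2-Q6 is a nonclassical heavy chain gene of the Qa-2 group. It had 744, 437 and 283 counts in the 5ar1 libraries and 126, 142 and 91 counts in the 5ar3 libraries. The AFX libraries had 8, 3 and 2 counts, the AF libraries 2, 3 and 2, and the ES libraries 0, 1, 1 and 1. In CPM this was 27.6, 13.9 and 9.58 in 5ar1, 4.80, 5.23 and 4.29 in 5ar3 and at most 0.270 in any other library. H2-Q6 passed the low-count filter through the FS libraries alone. The summed counts were 1823 in FS, 13 in AFX EpiSCs, 7 in AF EpiSCs and 3 in ES, which is given as a description.

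The difference between the FS lines was tested, although H2-Q6 was chosen for its level in these same FS libraries. The test is therefore not free of that choice. All 3 libraries of 5ar1 lay above all 3 of 5ar3, and the log2 fold change was 1.83 (SE 0.35, edgeR adjusted p 0.00703). It was the only 1 of the 10 genes called between the lines, where 3.88% of all genes were called (1.86% higher and 2.02% lower), and the median over the 10 genes was -0.16 against -0.01 over all genes. Fitting only the FS libraries gave an adjusted p of 0.061. Within 5ar1 the 3 libraries went from 27.6 CPM at passage 10 to 13.9 at passage 12 and 9.58 at passage 14. Those of 5ar3 stayed between 4.29 and 5.23 CPM. The lines also differ in passage, and at passage 12 the level was 13.9 CPM in 5ar1 and 4.80 CPM in 5ar3.

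Since H2-Q genes share sequence, their reads were also summed over the 6 of 8 listed H2-Q genes that the table holds. The sum was 41.1 ± 17.5 CPM in 5ar1 (SD, n = 3), 22.4 ± 2.65 in 5ar3 (SD, n = 3), 23.5 ± 3.54 in AFX6 (SD, n = 3), 22.9 ± 5.00 in AF32 (SD, n = 3) and 2.00 ± 1.0 in ES (SD, n = 4). Line 5ar3 and both EpiSC lines differed in the family sum by less than their spread, although H2-Q6 made up 20.6% to 22.1% of it in 5ar3, 0.312% to 1.28% in AFX6 and 0.248% to 0.510% in AF32. In 5ar1 the share was 34.3% to 45.3%. Without H2-Q6 the sum was 24 ± 8.15 CPM in 5ar1, 17.6 ± 2.19 in 5ar3, 23.3 ± 3.59 in AFX6 and 22.8 ± 5.01 in AF32. Whether the share of H2-Q6 differs through its own transcription or through alleles that send reads to one copy or another cannot be told apart here.

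**Figure D3:**
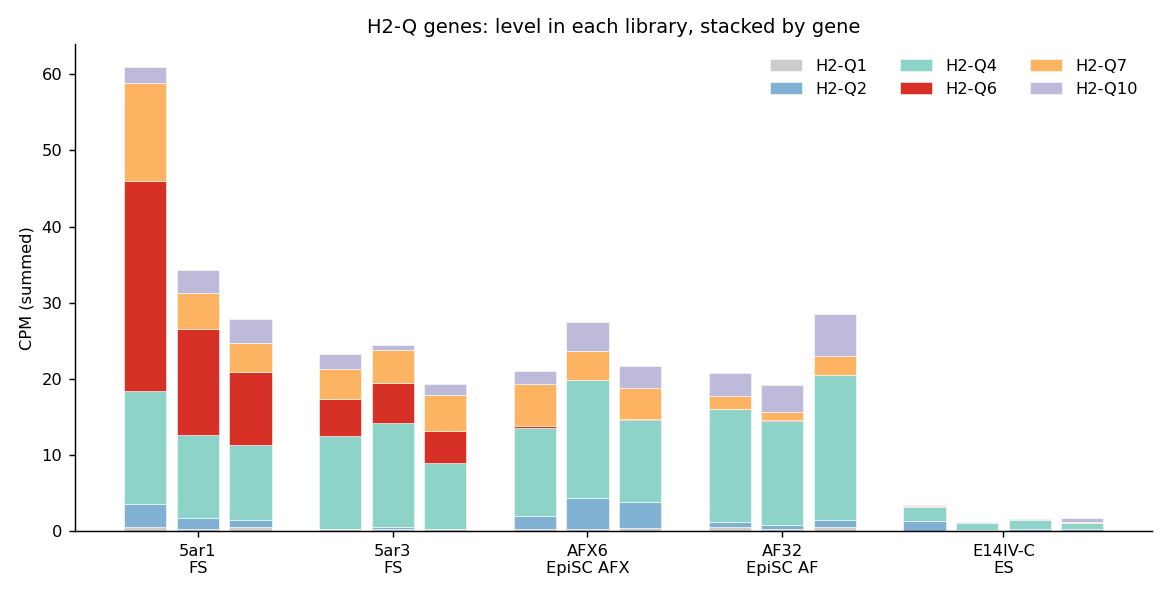
Summed level of 6 H2-Q genes in each library (CPM, stacked by gene), grouped by line. H2-Q6 makes up 20.6% to 45.3% of the bar in FS libraries and at most 1.28% in EpiSC libraries, while the height of the 5ar3 bars lies in the range of the EpiSC bars.

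H2-Q4 was at 8.62 to 19.0 CPM in all libraries outside ES and 0.813 to 1.87 CPM in ES. H2-Q7, the closest copy of H2-Q6 by shared windows, was at 3.86 to 12.9 CPM in FS, 5.57, 3.71 and 4.07 CPM in AFX EpiSCs, 1.61, 1.11 and 2.51 CPM in AF EpiSCs and at most 0.0850 CPM in ES. It was higher in FS than in AF EpiSCs (log2 fold change 1.72, SE 0.43, edgeR adjusted p 0.00995). H2-Q2 was higher in 5ar1 than in 5ar3 (3.63, SE 0.79, edgeR adjusted p 0.0156). The 5 genes whose log2 CPM followed H2-Q6 most closely over the 16 libraries were Nnat (Pearson r 0.959), Fut4 (0.955), Prmt8 (0.939), Slc17a6 (0.934) and 2900027M19Rik (0.931). These are the highest of 18554 correlations with a gene picked for being high in FS. That choice favours other genes high in FS. Points of this correlation share lines, and it is a description.

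Over all 21 listed class I heavy chains, 17 were in the table and 15 passed the filter. Of the 14 tested between FS and ES, 8 were higher and 1 lower in FS, against 32.9% and 29.9% of all genes, with a median log2 fold change of 2.19 against 0.04 over all genes. Beside H2-K1 and H2-D1, H2-Q4 was higher by 3.34 on the log2 scale (SE 0.26, edgeR adjusted p 6.43e-09). The exception was H2-M5, at 36.1, 49.1, 42.9 and 38.6 CPM in ES and at most 0.913 CPM in any other library, a difference of -6.60 on the log2 scale (SE 0.42, edgeR adjusted p 4.36e-10). In AFX EpiSCs 11 of 15 were higher and 1 lower than in ES, against 28.5% and 26.2% of all genes. In AF EpiSCs 11 were higher and 2 lower, against 29.7% and 27%. Between FS and AF EpiSCs 2 of 14 were higher, H2-Q7 and H2-K1, and 2 lower, H2-M3 (-2.25, SE 0.49) and H2-T10 (-2.23, SE 0.50), against 7.84% and 8.81% of all genes. Without AF replicate 1 or 2 the count was 2, both lower in FS.

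Interferon raises class I and processing genes, so genes of its pathway were examined. Of 17 listed interferon-stimulated genes 12 passed the filter and were tested. Of these, 10 were called between FS and AF EpiSCs, 4 between FS and AFX EpiSCs and 4 between AFX and AF EpiSCs, and every called gene was lower in the first group named. Of all genes 8.81%, 2.1% and 2.83% were lower in these comparisons. The last count was 2 with passage as a covariate and 8 when only the EpiSC libraries were fitted. The median log2 fold changes were -3.46, -1.48 and -1.95, against 0.04, 0.04 and 0.00 over all genes. Between FS and ES the list went both ways, with 7 higher and 4 lower in FS, against 32.9% and 29.9% of all genes, and with only those groups fitted 3 were higher and 4 lower. The 4 that were lower were Oas1a (-7.11, SE 0.47), Ifih1 (-3.29, SE 0.39), Ddx58 (-2.33, SE 0.37) and Irgm1 (-2.18, SE 0.53). Oas1a was at 22.5 to 39.7 CPM in ES, at most 0.571 CPM in FS, 0.607 to 0.643 CPM in AFX EpiSCs and 2.16 to 2.25 CPM in AF EpiSCs. Gbp2, a guanylate-binding protein gene, was at 1.04 to 5.96 CPM in FS with a median of 1.97, 17.2, 17.1 and 41.2 CPM in AFX EpiSCs, 75.3, 34.7 and 52.2 CPM in AF EpiSCs and at most 0.182 CPM in ES. FS lay below both EpiSC groups, and Gbp2 was lower in FS by -3.18 against AFX EpiSCs (SE 0.44, edgeR adjusted p 0.000401) and by -4.28 against AF EpiSCs (SE 0.45, edgeR adjusted p 7.54e-06).

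Some genes of this list also differed between the EpiSC groups. Isg15, a ubiquitin-like modifier, had 1 count in the 6 FS libraries, 5 in AFX EpiSCs, 89 in AF EpiSCs and 3 in ES. The ratio of AF EpiSCs to FS was 161 (95% exact binomial interval 28.1 to 6421) and that of AF to AFX EpiSCs 17.2 (7.12 to 54.4). Igtp was lower in AFX than in AF EpiSCs by -2.78 (SE 0.35, edgeR adjusted p 0.000142) and Gbp3 by -2.47 (SE 0.58, edgeR adjusted p 0.0199). Gbp3 was lower in FS than in AF EpiSCs by -5.27 (SE 0.52, edgeR adjusted p 4.28e-06). By group mean, Psmb8, Tap2, Tapbp and H2-T23 had the order of Gbp3 and Igtp outside ES, with AF highest, AFX next and FS lowest. Of the same 3 groups, H2-D1 and B2m were highest in AF and lowest in AFX EpiSCs, whereas H2-K1, Tap1 and Nlrc5 were lowest in AF EpiSCs.

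**Figure D4:**
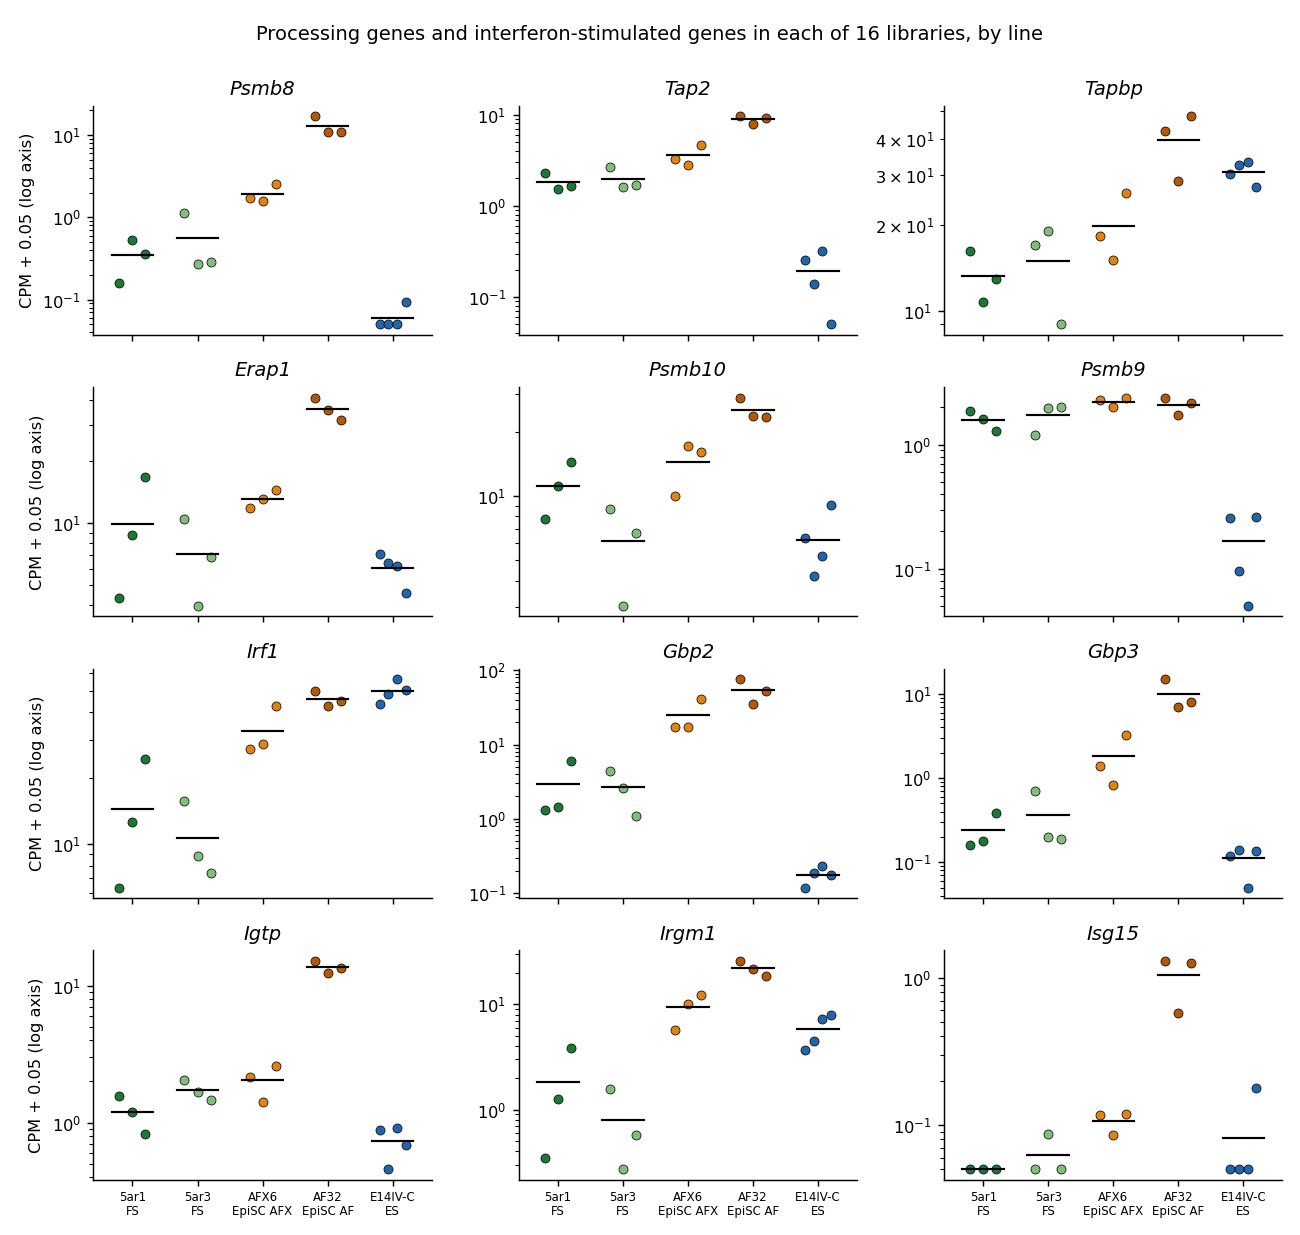
Level of 12 processing and interferon-stimulated genes in every library, as CPM plus 0.05 on a log axis, by line; points are libraries and bars are line means. Psmb8, Gbp3, Igtp and Isg15 are highest in line AF32, Irf1 is lowest in the FS lines, and Psmb9 is nearly level outside ES.

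Irf1 encodes a transcription factor through which interferon acts on class I promoters. It was at 6.30 to 24.5 CPM in FS with a median of 10.7, and at 27.2, 28.6 and 42.5 CPM in AFX EpiSCs. The levels were 49.8, 42.5 and 45.1 CPM in AF EpiSCs and 43.6, 48.3, 56.4 and 50.3 CPM in ES. All FS libraries lay below all others. The log2 fold change of FS was -1.38 against AFX EpiSCs (SE 0.30, edgeR adjusted p 0.0135), -1.87 against AF EpiSCs (SE 0.30, edgeR adjusted p 0.000400) and -1.98 against ES (SE 0.29, edgeR adjusted p 1.12e-05). It was the only 1 of the 13 listed interferon signalling genes called between FS and AFX EpiSCs and the only 1 between FS and AF EpiSCs, where 2.1% and 8.81% of all genes were lower. The call against AFX EpiSCs was lost without AFX replicate 3 and with only those groups fitted, and without FS replicate 5 or 6 the count against AF EpiSCs was 2. Of the 13 interferon signalling genes, 2 were higher in FS than in ES, the receptor gene Ifngr1 (2.22, SE 0.20) and Irf2 (577 counts in FS and 2 in ES), and 4 were lower. Irf9 (-2.21, SE 0.19) and Irf1 were among these. These 6 of 13 genes were a smaller share than the 62.8% of all genes called. The list's median was -0.22, against 0.04 over all genes.

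Other measures moved with the high AF values. Irf1, Igtp, Irgm1, Canx, Psmb6 and Psme4 lie on chromosome 11. There the median log2 fold change of all 1396 tested genes was -0.39 for FS against AF EpiSCs and -0.42 for AFX against AF EpiSCs. On other chromosomes the medians were 0.06 and 0.02. Psmb6 went the other way, with 0.88 for FS and 0.91 for AFX EpiSCs, each against AF EpiSCs. On chromosome 17, which holds Psmb8, Tap2 and Tapbp, the medians were 0.13 and 0.08. The summed fibroblast markers were also highest in AF EpiSCs, with 33 to 79.4 CPM, and Col3a1 was at 4.31 to 20.9 CPM there, against 0.259 to 1.60 CPM in FS and 1.18 to 1.68 CPM in AFX EpiSCs. Of the 8 markers, the number at 0 in all libraries of a line was 0 in AF32, 1 in AFX6, 1 in 5ar3 and 2 in 5ar1. The summed trophoblast markers, at 9.42 to 16 CPM in AF EpiSCs, lay above FS and overlapped AFX EpiSCs, and were higher still in ES. Of the 6 trophoblast markers, the number at 0 in all libraries of a line was 0 in AF32, 1 in AFX6, 3 in 5ar3 and 1 in 5ar1. The part of chromosome 11 and of fibroblast or trophoblast RNA in these results was not tested. In ES the blood and immune list was high through Laptm5 and Cd68, in the group where class I levels were lowest.

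Passage was examined as a common slope within lines. None of the 10 genes was called by edgeR (0 of 10, against 0.00539% of all genes), 2 had an unadjusted p under 0.05 and DESeq2 called 0. These were B2m, with a log2 change of -0.11 per passage (SE 0.03, unadjusted p 0.00350, adjusted p 0.531), and Psmb8, with 0.16 per passage (SE 0.07, unadjusted p 0.0334, adjusted p 0.559). In line 5ar3 the library at passage 12 had 25.0 CPM of B2m, and those at passages 4 and 5 had 73.2 and 42.3 CPM.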

How the data were processed

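RNA-seq counts per gene for 16 mouse libraries were used as the authors deposited them, as raw counts that had not been normalized. Per the submitters' processing notes, reads were trimmed with Trim Galore, and TopHat2 2.1.0, featureCounts 1.5.0 and mm10 are named. A directional kit was used, per the labels' protocols; the strand setting, the handling of reads with several hits and the annotation release are not given in the sources used here. Groups, lines and passages come from the labels, and 6 further columns of the table that match no sample were not used.

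Genes were filtered with filterByExpr, scaled by TMM and tested with edgeR 4.0.16 (R 4.3.3), using the robust quasi-likelihood test on all 16 libraries with one mean per group, or per line for the comparison of lines and for the passage slope. P-values were adjusted by Benjamini-Hochberg over 18555 genes and called under 0.05, and the SE is the log2 fold change divided by the root of F. The fit was also run on simulated counts with 200 genes changed in FS. Simulated libraries were independent, without line or passage effects, so that run cannot check calls under the real design. CPM are on the TMM scale, and lengths and positions are from GENCODE M21 on GRCm38. Ratios against groups with up to 3 counts per library carry exact 95% binomial intervals, which cover counting error only. Figures and sequence steps used Python 3.11.15, matplotlib 3.10.9 and Biopython 1.88.

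The genes and the pathway lists were chosen with earlier results of these data known. Named genes were the 10 members, up to 3 called genes per list, comparison and direction with the largest log2 fold change, and the 5 genes closest to H2-Q6; others were named after their values were seen where a count or an exception needed it (Psmb9, H2-Q4, Nfyb, overlapping transcripts and the markers Col3a1, Laptm5 and Cd68). Alternatives were DESeq2 1.42.0 size factors and its Wald test, total counts as the only scaling, 2 other low-count filters, passage as a covariate, only the groups compared, each FS line alone and each library left out. Leaving out the mitochondrial rRNA genes mt-Rnr1 and mt-Rnr2 was added after seeing the data. Library pairs differed by more than sampling noise, with a lowest chi-square per degree of freedom of 8.40. A result of 1 listed gene is not reported here.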

Additional observations from a re-analysis of the deposited data

Results flagged for a closer look

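In ES, H2-Q6 was at 0 CPM in replicate 1 and at 0.0425 CPM or more in the other 3 libraries. The gap from replicate 1 to its nearest neighbour was 0.933 of the group's range, above the 95% limit for 4 samples. The libraries had 0 counts and 1 count each. Psmb8 was at 0.0425 CPM in ES replicate 4, which was 1 count, and at 0 in the 3 others, so the gap was 1 of the range. In all, 20 sets of libraries were examined in this way, and chance flags about 1 in 20 where values are continuous. That rate does not hold for these flags. With only counts of 0 and 1, a library that differs gives a gap near or equal to the whole range.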

How the results depend on the processing

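No call among the members changed sign under any alternative: 514 values of called genes kept their call and 46 lost it. Of the values that were not called, 481 stayed so, 8 passed the threshold and 26 changed sign. The number of genes called was 7 to 9 for FS against ES, 6 to 9 for AFX EpiSCs against ES, 6 to 8 for AF EpiSCs against ES and 0 throughout for passage. For FS against AFX EpiSCs it was 2 by DESeq2's Wald test, 0 with only the groups compared and 0 to 1 with a library left out (0 without AFX replicate 3). For FS against AF EpiSCs it was 3 with line 5ar3 alone and 3 to 5 with a library left out. For AFX against AF EpiSCs it was 1 with total counts only, 0 with passage as a covariate, 5 with only the groups compared and 1 to 2 with a library left out. Between the FS lines it was 0 with only the FS libraries. Where a setting changed a call and did not change the number of samples or genes, the cause was not tested.

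Changes of sign were all in differences that were not called. For FS against AFX EpiSCs, H2-K1 gave 0.12 with total counts only, 0.0026 with a mean of at least 1 CPM, 0.0028 with passage as a covariate, 0.028 with line 5ar1 alone and -0.092 to 0.031 with a library left out. Tap1 gave 0.039 with total counts only, 0.21 with line 5ar3 alone and -0.21 to 0.16 with a library left out. B2m gave -0.35 with line 5ar1 alone and -0.23 to 0.23 with a library left out, and H2-T23 gave -1.14 to 0.66. For FS against AF EpiSCs, B2m gave 0.23 with line 5ar3 alone and -0.42 to 0.096 with a library left out, and between EpiSC groups -0.34 to 0.014. Between the FS lines, leaving out a library gave -0.11 to 0.19 for H2-K1, -0.36 to 0.13 for Tap2, -0.45 to 0.027 for Tapbp and -1.29 to 0.39 for Psmb8.

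Total counts as the only scaling moved the median of all genes from 0.04 to 0.40 for FS against ES, from 0.04 to 0.16 for FS against AFX EpiSCs, from 0.01 to 0.25 for AFX EpiSCs against ES and from 0.01 to 0.29 for AF EpiSCs against ES. The share of calls that were higher went from 52.4% to 70.5%, from 57.9% to 72.7%, from 52% to 64.7% and from 52.4% to 66.3%. For FS against AF EpiSCs it went from 47.1% to 55.7%, so that higher calls became the larger part. No paired analysis was possible because replicate numbers follow the order of the samples and pair nothing across groups. Depth limits H2-T23, Psmb8, Nlrc5 and H2-Q6 in ES, where each had at most 3 counts in total.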

Other observations

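Class I-like molecules, which have the class I fold and other tasks, went both ways against ES. Of 9 genes tested, 4 were higher and 4 lower in FS, while 32.9% of all genes were higher and 29.9% lower. Fcgrt, the neonatal Fc receptor gene, was at 4.11 to 8.43 CPM in ES and at most 0.289 CPM elsewhere, with a log2 fold change of -5.51 for FS against ES (SE 0.48, edgeR adjusted p 2.82e-08). Mr1, which presents vitamin metabolites, was at 0.0452 to 0.228 CPM in ES and 0.964 to 1.79 CPM in FS, and was higher in FS by 3.35 (SE 0.47, edgeR adjusted p 7.88e-06). Between the FS lines 3 of 9 were lower in 5ar1, against 2.02% of all genes, all of them ligands of the natural killer receptor NKG2D. Raet1d was at 0.778 to 1.02 CPM in 5ar1 and 2.17 to 3.30 CPM in 5ar3 (log2 fold change -1.58, SE 0.29, edgeR adjusted p 0.00555). Raet1e was at 1.18 to 2.30 CPM and 3.84 to 6.59 CPM (-1.71, SE 0.43, edgeR adjusted p 0.0348), and H60b was at most 0.0319 CPM in 5ar1 and 0.190 to 0.774 CPM in 5ar3. The count of 3 fell to 1 without FS replicate 3 or 5 and to 0 when only the FS libraries were fitted.

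Genes of NF-kappaB, which is known to bind kappaB sites, went both ways between FS and ES, with 4 of 7 lower and 2 higher in FS, against 29.9% and 32.9% of all genes. The list's median log2 fold change was -0.52 against 0.04 over all genes, and scaling by total counts alone gave 3 lower and 3 higher. The higher genes were Nfkb1 (1.41, SE 0.14) and Tnfaip3 (1.71, SE 0.37). The lower ones were Relb (-3.29, SE 0.31), Rel (-1.54, SE 0.24), Rela (-0.52, SE 0.18) and Nfkbia. Nfkbia, its inhibitor and target, was at 44.2 to 61.1 CPM in ES and 4.11 to 9.73 CPM in FS (log2 fold change -2.91, SE 0.21, edgeR adjusted p 2.42e-09). Between FS and AFX EpiSCs 2 of 7 were called, Rel and Nfkbia, both lower in FS, against 2.1% of all genes, and scaling by total counts alone gave 0. The subunit gene Rel was at 1.70 to 2.26 CPM in FS and 4.03 to 4.71 CPM in AFX EpiSCs (-1.19, SE 0.26, edgeR adjusted p 0.0137).

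Of 9 genes of the class II pathway, which presents peptides to helper T cells, 6 were tested. Between FS and ES 3 were higher and 2 lower in FS, against 32.9% and 29.9% of all genes. H2-Ab1 had 0 counts in all 4 ES libraries and was at 1.82 to 7.01 CPM in FS, and H2-DMa (2.41, SE 0.32) and H2-Oa (2.36, SE 0.47) were also higher. H2-DMb1 (-2.01, SE 0.35) and H2-Eb1 (-1.47, SE 0.48) were lower. Between FS and AF EpiSCs 2 of 6 were higher and 0 lower in FS, against 7.84% and 8.81% of all genes. They were H2-DMa (1.56, SE 0.33, edgeR adjusted p 0.00300), with 1.76 to 3.79 CPM against 0.779 to 1.35 CPM, and H2-Eb1 (2.05, SE 0.67, edgeR adjusted p 0.0439), with 0.271 to 0.964 CPM against 0.0708 to 0.163 CPM. The count was 1 without FS replicate 1, 4 or 5, without any 1 of the AF libraries, without the low-count filter and when scaled by total counts alone.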
